A study of Mus musculus with 933 samples.

Results

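The cytosolic ribosomal protein genes encode the proteins of the ribosome that translates messenger RNA in the cytoplasm. Members were the genes whose symbols follow the Rpl, Rplp, Rps and Rpsa pattern, without pseudogenes and kinases, and whose mean reached 1 TPM (transcript levels per length, scaled to a library sum of 1000000) in the cauda embryos of 4-cell cohort 1. The rule found 85 members among 23845 genes listed, of which 49 belong to the large subunit, 33 to the small subunit and 3 to the stalk. The threshold left out no gene of the pattern: Rpl3l was the lowest member, at 5.36 TPM, and no matching symbol lay under 1 TPM. Members were thus chosen by their symbols and selected on their 4-cell levels, which are given as a description.

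Ribosomal proteins are made in near-equal numbers and assembled with ribosomal RNA in the nucleolus. Their messenger RNAs are short and abundant, and most begin with a C followed by a run of pyrimidines, the 5′ terminal oligopyrimidine (TOP) motif, through which the kinase mTOR and the binding protein Larp1 control their translation. In the mouse, much of the messenger RNA of the oocyte is cleared during the 2-cell stage while the genome of the embryo is switched on, and the embryo builds ribosomes of its own as it divides. Several members have a paralog, a related gene that makes a variant of the same protein; Rpl3l is known from muscle, and Rpl10l and Rpl39l from testis.

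The embryos were of strain FVB, grown in KSOM medium, and made by intracytoplasmic sperm injection (ICSI) with sperm taken from the testis or from the caput (head) or cauda (tail) of the epididymis. Single embryos were sequenced by Smart-seq2, which primes on poly(A) tails, giving 933 libraries in 33 groups of 8 to 42 embryos. None of the groups received RNA unless stated. The 2-cell embryos were collected at 18 h (25 cauda, 19 caput), 24 h (8 cauda, 11 caput) and 28 h (24 cauda, 25 caput) after ICSI. The 4-cell cohorts held 32 cauda and 32 caput embryos in cohort 1, and 33 cauda and 34 testis embryos in cohort 3. Cohort 2 held 23 cauda and 23 caput embryos beside caput embryos injected with EpiM miRNA (22) or EpiM tRF, tRNA fragments (21). The 8-cell cohort held 25 cauda and 28 caput embryos. The morula cohorts held 31 cauda and 29 caput embryos (cohort 1), and 34 cauda and 34 testis embryos (cohort 2). The blastocysts were 42 cauda and 35 caput in cohort 1, 39 and 34 in cohort 2, and 29 cauda and 28 testis in cohort 5. Blastocyst cohort 3 held 39 cauda embryos and caput embryos injected with GFP RNA (26) or EpiM small RNA (25). Blastocyst cohort 4 held 31 cauda and 32 caput embryos beside caput embryos given EpiM miRNA (30) or EpiM tRF (30). RNA was injected 3 h after ICSI. A session is the day or batch number in the sample titles or descriptions. Sequencing depth is unknown from TPM, and precision is given by the spread between embryos.

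The stage labels were checked against marker genes. The oocyte markers summed to group means of 6927 to 7426 TPM at 18 h, 221 to 330.5 TPM at the 4-cell stage and 1.8 to 7.74 TPM in blastocysts. The genes of the 2-cell burst, such as Zscan4c and Zscan4d, summed to 1336 to 1476 TPM at 28 h and 7.24 to 30.3 TPM at the 4-cell stage, and trophectoderm markers reached 6646 to 11900 TPM in blastocysts. Inner cell mass markers did not set blastocysts apart. Their group means were 972.7 to 983.2 TPM at 18 h, 2251 to 2387 TPM in morulae and 1001 to 1703 TPM in blastocysts. Markers of cumulus cells summed to between 0.231 and 3.41 TPM in every group. Of the 933 libraries, 17 had a median correlation under 0.9 with the other embryos of their group over genes that are no members. Cauda embryo 1 labelled 28 h correlated at 0.959 with the mean of the 18 h cauda embryos and at 0.856 with that of its own group. Cauda embryo 23 labelled 8-cell was closest to the 24 h caput embryos (0.762 against 0.595 for its own group), and caput embryo 10 labelled 8-cell was closest to a blastocyst group (0.942 against 0.842). Calls over members, changes between 18 h and 28 h and counts across stages are given with and without these libraries where they differ.

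The letters around the transcription start show the TOP context of the members whose levels the results turn on. RefSeq (GRCm38.p6) gave a start for 64 of the 85 members. In the lines that follow, each sequence covers 30 bases before to 20 bases after the start, 5′ to 3′ on the strand of the gene, and capitals mark the longest unbroken run of C or T that touches the 5 bases on either side of the start. Rps27 (chr3:90213629-90213678, minus strand) and Rpl9 (chr5:65391412-65391461, minus) showed the largest changes between 18 h and 28 h. Rpl41 (chr10:128549149-128549198, minus) was the most abundant member from 28 h onward in the cauda cohorts described, and Rps15a (chr7:118116128-118116177, minus) was the member that fell. Rpl7a (chr2:26910777-26910826, plus), Rpl35 (chr2:39005112-39005161, minus) and Rpl15 (chr14:18270967-18271016, minus) are 3 of the 4 members with the longest runs, and Rps27l (chr9:66946056-66946105, plus), Rpl39l (chr16:10170198-10170247, plus) and Rpl39 (chrX:37085203-37085252, minus) belong to the pairs compared below.
Rps27: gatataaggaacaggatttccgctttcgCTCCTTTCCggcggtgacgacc
Rps27l: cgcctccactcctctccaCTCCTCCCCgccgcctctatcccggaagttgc
Rpl9: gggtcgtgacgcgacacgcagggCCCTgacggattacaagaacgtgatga
Rpl41: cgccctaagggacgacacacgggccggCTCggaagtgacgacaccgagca
Rpl39: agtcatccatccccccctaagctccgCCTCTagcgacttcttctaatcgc
Rpl39l: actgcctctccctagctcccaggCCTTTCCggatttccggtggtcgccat
Rpl7a: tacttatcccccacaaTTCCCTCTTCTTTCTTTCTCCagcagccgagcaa
Rpl35: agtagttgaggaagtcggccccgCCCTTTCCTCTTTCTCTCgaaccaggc
Rpl15: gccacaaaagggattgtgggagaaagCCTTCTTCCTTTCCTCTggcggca
Rps15a: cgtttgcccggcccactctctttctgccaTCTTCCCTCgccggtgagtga

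Such a run of at least 7 letters, searched on the strand of the gene, was found in 26 of the 64 members (40.6%) and in 14.0% of the promoters of all 27025 genes in the table. A C at the start followed by 4 more C or T letters was found in 12 members (18.8%), against 2.49% of all genes. A match is a description of these letters, and the annotated start can lie a few bases from the one used in embryos. Rps15a carries a run of 9 letters and so does Rps27, although one fell and the other rose furthest between 18 h and 28 h.

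Members together made up 0.406% ± 0.0741 (SD, n = 25) of all TPM in cauda embryos at 18 h and 0.423% ± 0.0709 (SD, n = 19) in caput embryos. At 24 h the share was 1.04% ± 0.183 (SD, n = 8) with cauda sperm and 0.990% ± 0.397 (SD, n = 11) with caput sperm, in embryos of another session. At 28 h it was 2.95% ± 0.952 (SD, n = 24) with cauda sperm and 2.63% ± 0.806 (SD, n = 25) with caput sperm. The share thus lay several-fold above its 18 h value before the next division. The 18 h cauda embryos ran from 0.279% to 0.605% around a median of 0.404%, and the 28 h cauda embryos from 0.276% to 4.56% around 3.13%. The caput embryos ran from 0.271% to 0.561% (median 0.414%) at 18 h and from 1.27% to 4.13% (median 2.63%) at 28 h. The groups did not overlap with caput sperm, and with cauda sperm they overlapped because of embryo 1, at 0.276%. Without the libraries that stood apart, the lowest of 22 cauda embryos at 28 h was at 1.75% and their mean was 3.03%.

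From the 4-cell stage onward the share was 7.22% or more in all but 1 embryo. Group means were 10.8% to 11.7% at the 4-cell stage, 12.5% to 12.8% at the 8-cell stage, 12.5% to 15.6% in morulae and 11.5% to 14.3% in blastocysts. Single embryos ran from 7.58% to 13.6% at the 4-cell stage, from 3.09% to 17.3% at the 8-cell stage, from 10.3% to 18.9% in morulae and from 7.22% to 23.6% in blastocysts. The lowest 8-cell value is that of cauda embryo 23 and the highest blastocyst value that of an embryo given EpiM small RNA, and both libraries stood apart from their groups. The tables of different stages were made separately, so these levels were compared as a description, without a test. In whole embryos, a change in the number of cells of a type and a change in RNA per cell cannot be told apart, and neither can more RNA and longer poly(A) tails.

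**Figure D1:**
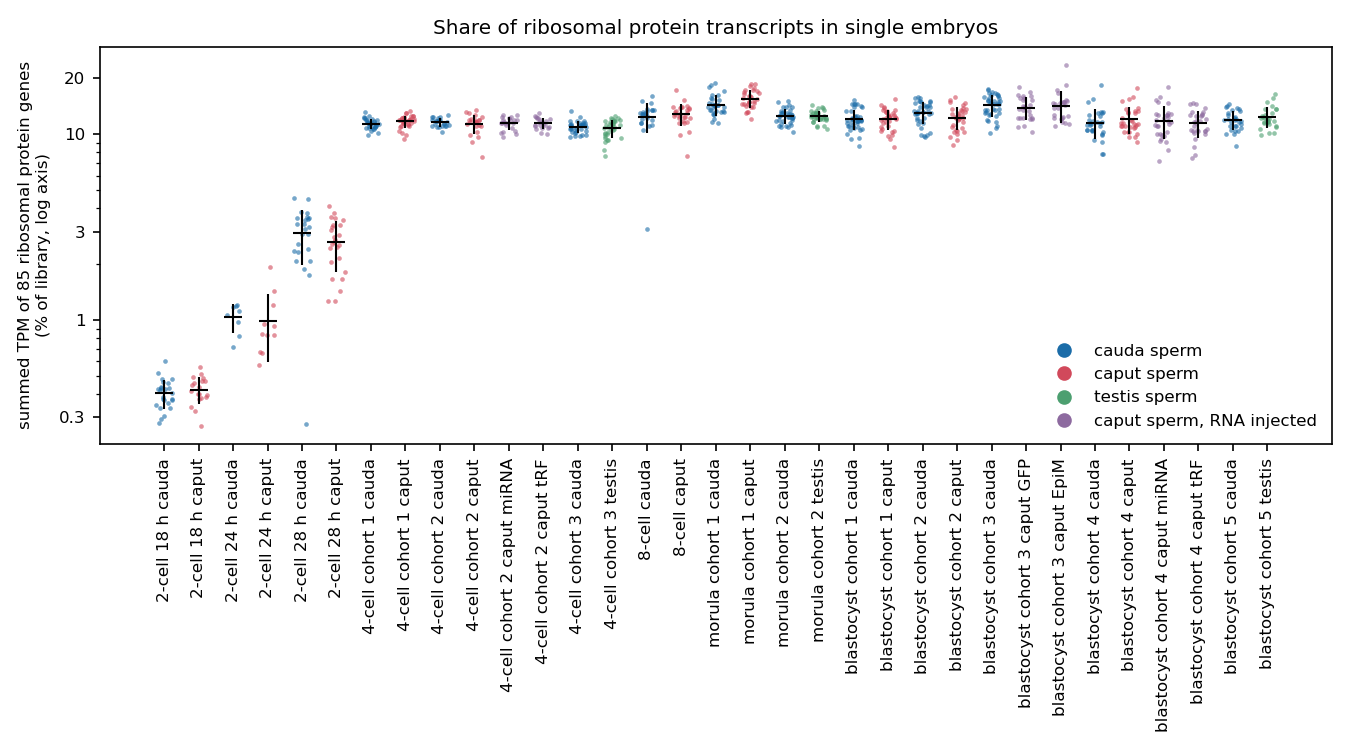
Share of all TPM in the 85 ribosomal protein genes (percent, log axis) in each of the 933 embryos, by group, with points for embryos, horizontal lines for group means and vertical lines for 1 SD, coloured by sperm source and injection. The 18 h embryos lie between 0.271% and 0.605%, the 28 h embryos but 1 between 1.27% and 4.56%, and the embryos of later stages but 1 at 7.22% or more.

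The balance among members also differed with stage. A ratio was taken of summed large-subunit and stalk TPM to small-subunit TPM, so the level of the stalk genes enters it. Its group means were 1.54 to 1.61 at 18 h, 1.43 to 1.51 at 28 h and 1.35 to 1.39 at the 4-cell stage. They were 1.33 to 1.36 in morulae and 1.28 to 1.32 in blastocysts. In 28 h caput embryos the median was 1.40, and the highest embryo stood at 2.47. The large subunit without the stalk was not compared. The 4 highest members held 24.1% of the members' TPM at 18 h and 23.1% at 28 h with cauda sperm, and 13.0% in cauda embryos of 4-cell cohort 1. The median member stood at 27.8 TPM at 18 h and 255.4 TPM at 28 h in cauda embryos, then at 1286 TPM in 4-cell cohort 1, 1652 TPM in morula cohort 1 and 1308 TPM in blastocyst cohort 1. The order of the 85 levels was much like itself from the 4-cell stage on (Spearman's rho 0.967 between 4-cell cohort 1 and 8-cell embryos, 0.895 between 4-cell and blastocyst cohort 1). It was less so between 18 h and the 4-cell stage (rho 0.392, cauda embryos). These rho values are across genes of pooled means, with n = 85, and the genes are not independent.

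**Figure D2:**
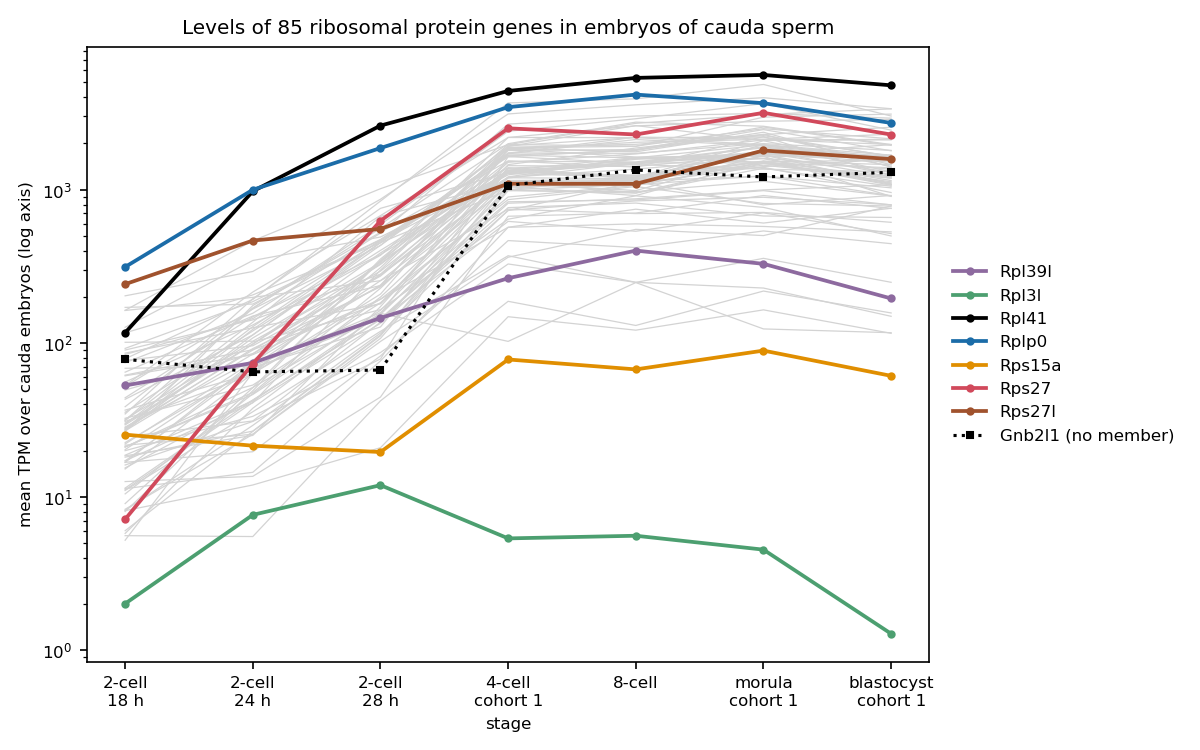
Mean TPM over cauda embryos (log axis) of the 85 members in the 2-cell groups and in the 8-cell and first 4-cell, morula and blastocyst cohorts, as grey lines with 7 members coloured and Gnb2l1, which is no member, dotted. Most lines are higher at 28 h than at 18 h and higher again at the 4-cell stage, while Rpl3l is lower after 28 h (11.9 to 5.36 TPM) and Rps15a stays under 100 TPM throughout.

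The 18 h and 28 h embryos came from the same 3 sessions and could be tested. With cauda sperm, 84 of 85 members were higher at 28 h and 1 was lower (limma on log2(TPM + 1), Benjamini-Hochberg adjusted p under 0.05), beside 33.6% of the 13249 genes tested that were higher and 38.7% that were lower. With caput sperm, 84 members were again higher and 1 lower, beside 37.0% and 31.9% of 13537 genes. Rpl3l was the sole member that reached 1 TPM in fewer than 50% of the embryos of each 18 h group, so it entered these tests through the 28 h embryos, where it was higher. The median change of the members was 2.98 on the log2 scale with cauda sperm, a fold of 7.87, against -0.14 for all genes tested. With caput sperm the median was 2.73, a fold of 6.65. With cauda sperm 66 members changed by 2 or more, that is at least 4-fold, as did 11.0% of all genes tested, and with caput sperm 61 did, beside 11.2%. Rises were seen in both subunits: with cauda sperm all 49 large-subunit genes rose (median 2.94), as did 32 of 33 small-subunit genes (median 3.16) and the 3 stalk genes (median 2.46). Fold changes are on the log2(TPM + 1) scale, which understates the change of low genes.

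These counts did not turn on the libraries that stood apart: without them 84 members rose and 1 fell with either sperm, with medians of 3.20 (cauda) and 2.82 (caput). Whether single embryos overlapped did depend on them. Every 28 h embryo lay above every 18 h embryo for 0 of 85 members with cauda sperm (0.121% of all genes tested), and for 59 members (6.12%) without those libraries. With caput sperm the groups did not overlap for 38 members (4.48%), or 46 (5.66%) without those libraries. The reverse, every 28 h embryo below every 18 h embryo, held for 0 members in each case, beside 0.928% of all genes with cauda sperm (2.69% without those libraries) and 1.40% with caput sperm (2.89%). Over the same interval 6 oocyte markers summed to group means of 6927 to 7426 TPM at 18 h. At 28 h they summed to 5145 to 5330 TPM. With cauda sperm Bmp15 (3472 to 1152 TPM), Gdf9, Zp2 and Zp1 were lower at 28 h. Oosp1 (2587 to 3287 TPM) and Zp3 (58.23 to 81.69 TPM) were higher. The 5 genes of the 2-cell burst summed to 854.8 to 1121 TPM at 18 h and 1336 to 1476 TPM at 28 h. In cauda embryos Zfp352 (293.1 to 725.2 TPM) and Usp17lc (64.55 to 165.3 TPM) were higher at 28 h. Zscan4c (361.1 to 168.3 TPM), Zscan4d (346.4 to 227.9 TPM) and Usp17le were lower. The part of these markers in the members' change was not tested. The members were proposed with results of these data known, so the counts describe the genes listed.

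**Figure D3:**
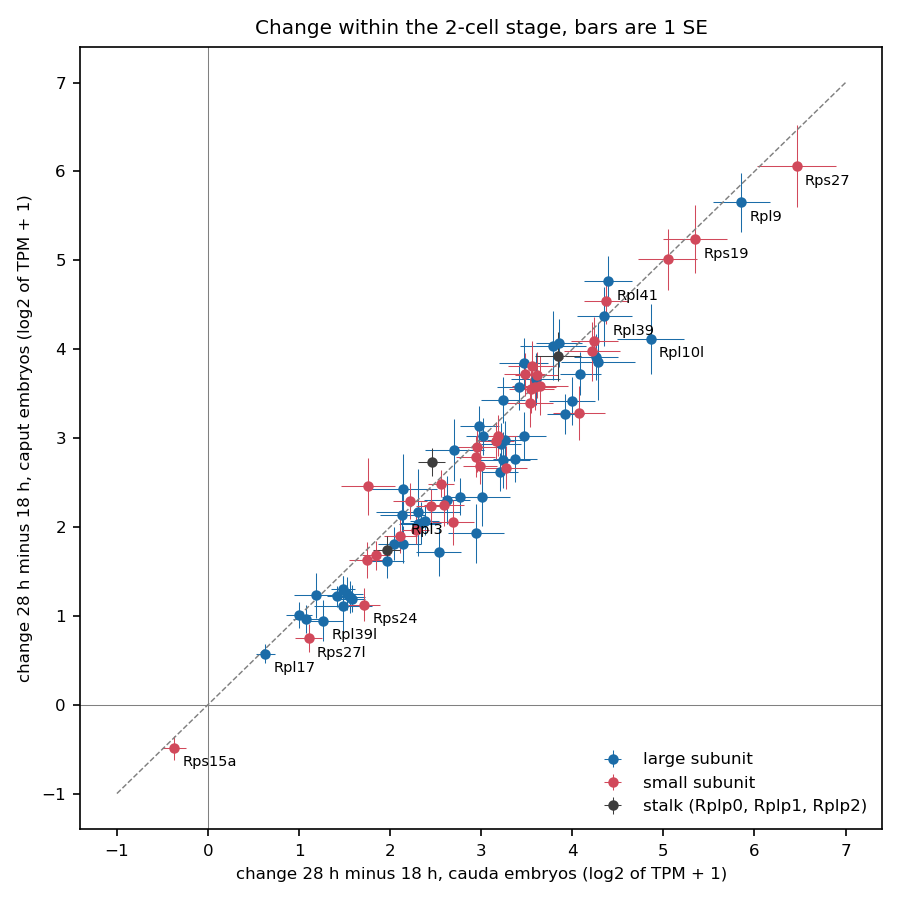
Fitted change from 18 h to 28 h of each of the 85 members (log2 scale), cauda embryos on the horizontal and caput embryos on the vertical axis, with bars of 1 SE, colours for the subunits and a dashed line of equal change. All members but Rps15a lie above 0 on both axes, with Rps27 at 6.46 and 6.06 at the far end.

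Rps27, a zinc-finger protein of the small subunit, rose furthest. In cauda embryos it ran from 0 to 30.4 TPM around a median of 3.73 at 18 h, and from 0 to 1501 around 597.1 at 28 h. In caput embryos the range was 0 to 30.4 (median 6.79) and then 27.4 to 983.5 (median 531.1). With all libraries the groups overlapped at their edges with either sperm, and the 28 h embryo listed at 0 is cauda embryo 1. Without the libraries that stood apart they did not overlap, and the lowest 28 h value was 115.4 TPM with cauda and 70.6 TPM with caput sperm. The fitted change was 6.46 ± 0.43 with cauda sperm (SE, a fold of 88.2, adjusted p = 6.06e-27, limma) and 6.06 ± 0.46 with caput sperm (a fold of 66.8, adjusted p = 5.32e-23). The 24 h cauda embryos, at 73.5 ± 43.8 TPM (SD, n = 8), lay between.

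Rpl9, a large-subunit protein near the base of the stalk, was at 0 to 16.3 TPM (median 3.87) in cauda embryos at 18 h and at 4.65 to 762.3 TPM (median 322.7) at 28 h. In caput embryos it was at 0 to 16.8 TPM (median 4.27) and then 80.7 to 540.3 TPM (median 276.1). The caput groups were wholly separate, and the cauda groups were so too without the libraries that stood apart (lowest 28 h value 150.7 TPM). The change was 5.86 ± 0.31 with cauda sperm (SE, a fold of 57.9) and 5.65 ± 0.34 with caput sperm (a fold of 50.2). Rps19, a small-subunit protein whose human gene is mutated in Diamond-Blackfan anaemia, went from a mean of 8.02 to 353.2 TPM in cauda embryos (change 5.35 ± 0.35, SE) and from 9.69 to 330.4 TPM in caput embryos (5.24 ± 0.38). Rpl9 and Rps19 were both under the median member (27.8 TPM) at 18 h and stood at 1928 and 1675 TPM in cauda embryos of 4-cell cohort 1.

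Rpl41, which encodes the shortest protein of the large subunit, was already abundant at 18 h, at 25.2 to 267.3 TPM (median 115.0) in cauda embryos. At 28 h it stood at 16.7 to 4020 TPM (median 2899). In caput embryos it ran from 29.0 to 226.1 TPM (median 97.2) and then from 1031 to 4268 TPM (median 2741). The caput groups did not overlap, and the cauda groups overlapped with all libraries but not without those that stood apart (lowest 28 h value 1328 TPM). The change was 4.39 ± 0.26 with cauda and 4.77 ± 0.28 with caput sperm (SE). It then reached 4388 TPM in 4-cell cohort 1, 5339 TPM in 8-cell embryos and 5580 TPM in morula cohort 1 (cauda means).

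The stalk recruits the translation factors, with Rplp0 as its base and Rplp1 and Rplp2 as paired tips. Rplp0 was the most abundant member at 18 h, at 313.7 ± 87.4 TPM (SD, n = 25) in cauda embryos, and rose to 1865 ± 751 TPM (SD, n = 24), a change of 2.46 ± 0.15 (SE). Rplp1 rose from 38.6 to 560.0 TPM (3.84 ± 0.26) and Rplp2 from 127.0 to 491.5 TPM (1.96 ± 0.15) in the same embryos. With caput sperm the changes were 2.73 ± 0.16 for Rplp0, 3.92 ± 0.28 for Rplp1 and 1.74 ± 0.16 for Rplp2. Rplp2 thus stood above Rplp1 at 18 h and below it at 28 h and in 4-cell cohort 1 (1275 against 1990 TPM, cauda).

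The smallest rise was that of Rpl17, a large-subunit protein at the exit tunnel. It stood at 104.0 to 240.8 TPM (median 160.6) in cauda embryos at 18 h and at 107.0 to 360.4 TPM (median 269.9) at 28 h, ranges that overlap broadly. Its change was 0.63 ± 0.10 with cauda and 0.58 ± 0.11 with caput sperm (SE). Members with the long pyrimidine runs printed above rose by unequal amounts: Rpl7a (21 letters) by 1.00 ± 0.14, Rpl35 (18 letters) by 3.92 ± 0.21 and Rpl15 (17 letters) by 1.07 ± 0.14 with cauda sperm (SE). Over the 64 members with a promoter, the median cauda change was 2.47 for the 26 with a run of at least 7 letters and 3.10 for the other 38, and with caput sperm 2.23 and 2.75. This is a description without a test.

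Rps15a, a small-subunit protein, was the member that fell. In cauda embryos it stood at 14.9 to 33.1 TPM (median 26.2) at 18 h and at 9.78 to 31.3 TPM (median 19.3) at 28 h. In caput embryos it stood at 13.0 to 40.4 TPM (median 25.5) and then 9.01 to 28.9 TPM (median 19.2). The ranges overlapped over most of their length. The change was -0.37 ± 0.13 with cauda sperm (SE, adjusted p = 0.00675, limma) and -0.48 ± 0.14 with caput sperm (adjusted p = 0.00117). With the cauda embryos averaged per session the adjusted p was 0.0852, and without 1 of the 3 sessions it was 0.198. The gene also stayed low later, at 78.4 ± 12.0 TPM (SD, n = 32) in 4-cell cohort 1, where the median member stood at 1286 TPM. Pseudogenes Rps15a-ps4 and Rps15a-ps6 are listed at like levels and with like changes (-0.73 and -0.50 with cauda sperm), so the level of Rps15a is uncertain where near-identical copies share reads.

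Whether caput and cauda embryos changed by different amounts was tested as an interaction. No member of 85 passed (0% of 14969 genes passed), and 5 members had an unadjusted p under 0.05. The difference had a median of -0.19 over the members and 0.10 over all genes, and was positive for 23 members. The smallest p was that of Rps24, a small-subunit protein, at -0.59 ± 0.25 (SE, adjusted p = 0.487, limma). It went from 77.2 to 273.5 TPM in cauda embryos and from 84.7 to 200.7 TPM in caput embryos.

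Genes that work with the members were taken from listed groups. Of the ribosomal proteins named otherwise, Fau (a ubiquitin-like protein fused to a small-subunit protein) rose by 2.16 with cauda sperm. Gnb2l1, the scaffold on the small-subunit head, changed by -0.27 (adjusted p = 0.267, limma), standing at 78.6 TPM at 18 h, 66.9 TPM at 28 h and 1063 TPM in 4-cell cohort 1. Among 16 other genes with TOP messages, 9 rose and 3 fell with cauda sperm, with a median of 0.72 on the log2 scale. With caput sperm 10 rose and 2 fell, with a median of 0.88. Pabpc1, the poly(A)-binding protein, rose by 4.36 and the elongation factor Eef2 by 1.36, while Btf3 fell by 0.93, Eif4b by 0.67 and Naca by 0.25. Eef1a1, the elongation factor that brings aminoacyl-tRNA, changed by -0.05 (adjusted p = 0.686).

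Of 42 genes of ribosome assembly, 33 rose and 3 fell with cauda sperm (median 1.85) and 31 rose and 5 fell with caput sperm (median 1.69). Nop16 rose by 5.71, Nop2 by 5.32, Bop1 by 5.03 and Rrs1 by 4.45 with cauda sperm, while Sbds, a factor that frees the large subunit of its assembly factor, fell by 1.28, Utp18 by 0.65 and Pes1 by 0.39. Of 14 genes of RNA polymerase I, which transcribes ribosomal RNA, 12 rose and 0 fell with cauda sperm (median 2.21), led by its factor Ubtf at 5.03, and 12 rose and 1 fell with caput sperm (median 2.42). Of 9 genes that control ribosome synthesis, 5 rose and 0 fell with cauda sperm (median 0.44), among them Eif4ebp1 at 2.33, Larp1 at 1.71, Myc at 1.45, Mycn at 1.19 and Mtor at 0.44. With caput sperm 5 rose and 0 fell (median 0.74). In the comparison of sperm at 18 h, 41 of 42 assembly genes, 13 of 14 polymerase genes and 8 of 9 control genes passed the filter. The others entered the tests of 28 h against 18 h through the 28 h embryos. These lists were drawn up with earlier results known. With cauda sperm they are set beside the 33.6% of all genes that rose and the 38.7% that fell. With caput sperm these were 37.0% and 31.9%.

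At 18 h the share of a pair held by its paralog differed from pair to pair, with cauda medians from 1.78% (Rpl10l) to 98.0% (Rps27l) and some pairs near even, such as Rpl7l1 at 41.6% and Rpl36al at 59.3%. Rps27l held 98.0% of the TPM of the pair Rps27l and Rps27 in the median 18 h cauda embryo (90.8% to 100%), then 88.6% at 24 h, 47.3% at 28 h (26.8% to 100%) and 30.0% in 4-cell cohort 1 (19.6% to 42.99%). With caput sperm the medians were 97.7%, 87.3%, 46.4% and 30.1%. The range at 18 h lay wholly above that of the 4-cell embryos. Rps27l itself rose by 1.11 with cauda and 0.75 with caput sperm while Rps27 rose by 6.46 and 6.06, so the pair exchanged order through unequal rises. The share was 42.1% in the median cauda embryo of blastocyst cohort 1.

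Rpl39l held 68.9% of its pair with Rpl39, a small protein of the exit tunnel, in the median 18 h cauda embryo (40.7% to 100%), and 20.1% at 28 h (4.17% to 71.4%). With caput sperm it held 73.8% (49.4% to 100%) and then 23.4% (9.01% to 39.6%), and the caput groups did not overlap. Rpl39l rose from 53.1 to 146.0 TPM in cauda embryos (change 1.26) and Rpl39 from 26.6 to 527.6 TPM (change 4.35). Rpl39l was at 265 TPM in 4-cell cohort 1, 400.9 TPM in 8-cell embryos and 195.6 TPM in blastocyst cohort 1, where it held 13.7% of the pair.

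Rpl3l, the muscle paralog of Rpl3, was the sole member with its highest stage mean at 28 h. It stood at 0 to 8.86 TPM (median 0.960) in 18 h cauda embryos and 0 to 25.4 TPM (median 10.7) at 28 h, a fitted change of 2.14 in a test it entered through the 28 h embryos, then at a mean of 5.36 TPM in 4-cell cohort 1 and 1.28 TPM in blastocyst cohort 1. Its partner Rpl3 went from 16.1 to 79.0 TPM (change 2.13) and on to 1642 TPM in 4-cell cohort 1. The paralog held 11.9% of the pair in the median cauda embryo at 28 h and 0.141% in 4-cell cohort 1.

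Rpl10l, the testis-enriched copy of Rpl10, rose from 5.78 to 156.5 TPM with cauda sperm (change 4.86 ± 0.37, SE) and from 6.95 to 131.9 TPM with caput sperm (4.12 ± 0.39). It held 1.78% of its pair in the median 18 h cauda embryo, 14.6% at 28 h and 2.92% in 4-cell cohort 1. Rpl10 rose by 2.04, from 203.5 to 865.7 TPM, with cauda sperm. Rpl7l1 rose by 3.26 beside 3.60 for Rpl7, and Rpl22l1 by 2.31 beside 1.18 for Rpl22. Rpl36al rose by 4.26 beside 2.70 for Rpl36a, and Rps4l by 1.76 beside 2.11 for Rps4x, all with cauda sperm. Rpl7l1 held 38.9% of its pair at 28 h, 16.1% in 4-cell cohort 1 and 7.04% in blastocyst cohort 1. Rpl36al held 79.0% of its pair at 28 h and 49.5% in 4-cell cohort 1, and Rpl22l1 held 50.9% and then 55.6%. Near-identical pairs such as Rpl10 with Rpl10l and Rpl36a with Rpl36al can exchange reads, and Rps4l is annotated from a non-coding transcript, so these shares are uncertain.

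**Figure D4:**
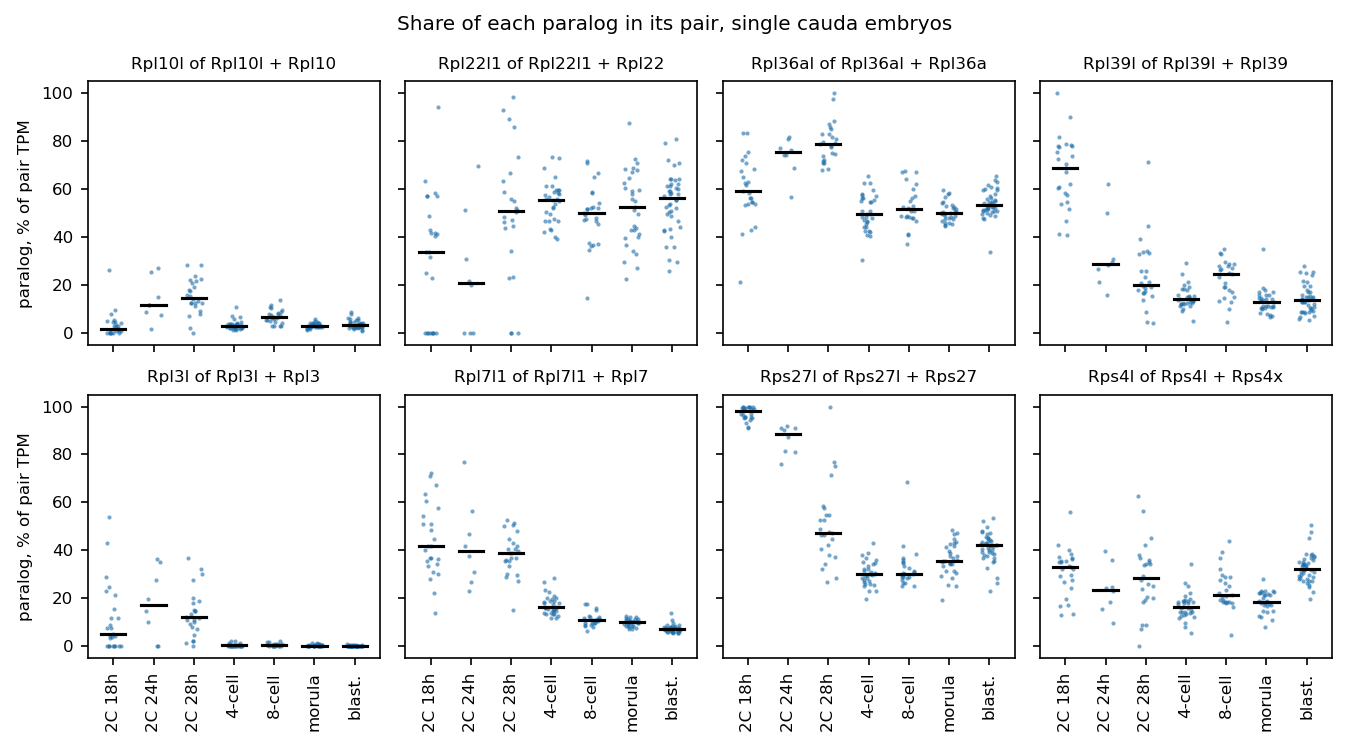
Share of the TPM of each pair that the paralog holds (percent) in single cauda embryos by stage (cohort 1 where there are several), 1 panel per pair, with points for embryos and lines for medians. Rps27l runs from 98.0% at 18 h to 30.0% in 4-cell cohort 1, and Rpl3l from 11.9% at 28 h to 0.141%.

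Across stages, a member was counted as higher where every group mean of the later stage lay above every group mean of the earlier one. From 28 h to the 4-cell stage 83 of 85 members were higher and 1, Rpl3l, was lower, beside 34.1% and 48.1% of all genes. The median ratio was 2.25 on the log2 scale, against -0.35 for all genes. From the 4-cell to the 8-cell stage 36 members were higher and 3 lower (23.5% and 18.0% of all genes), or 42 and 4 (22.7% and 22.1%) without the libraries that stood apart. From the 8-cell stage to the morula 30 were higher and 9 lower (26.2% and 43.9%), or 29 and 12 (31.5% and 42.7%) without them. From the 4-cell stage directly to the morula 34 were higher and 2 lower (23.2% and 34.1%). From the morula to the blastocyst 0 were higher and 12 lower (17.9% and 16.7%), with a median of -0.15 against 0.03 for all genes. Among 18 h, 28 h and the later stages, the highest mean was in the morula for 45 members, the blastocyst for 18 and the 8-cell stage for 18, or for 42, 15 and 24 without the libraries that stood apart. It was at the 4-cell stage for 3, namely Rpl30, Rpl7l1 and Rps21. These counts have no test, since a stage and its tables cannot be told apart.

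Between the 4-cell stage and the blastocyst 18 members were higher and 7 lower by this rule, beside 22.5% and 29.6% of all genes. Without the libraries that stood apart 17 were higher and 7 lower (23.0% and 29.7%). The share of members that was higher was close to that background. Rps27l was 1.92-fold higher in blastocysts (mean of group means 1991 against 1038 TPM), Rps18 was 1.81-fold higher (3262 against 1803 TPM) and Rps2 was 1.75-fold higher (4005 against 2295 TPM). On the other side, Rpl7l1 stood at 0.411 times its 4-cell level (151.3 against 368.3 TPM), Rpl39l at 0.629 times and Rps13 at 0.675 times (1398 against 2070 TPM). Rplp0, the stalk base, stood at 0.778 times.

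The ratio of morula cohort 1 to 28 h, both of cauda embryos, had a median of 5.19. It was largest for Rpl3 (21.9), Rpl14 (20.5) and Rpl34 (15.2), all large-subunit proteins, and smallest for the paralogs Rpl3l (0.380), Rpl10l (0.792) and Rpl7l1 (1.91). Rpl14 shares its level with a pseudogene, Rpl14-ps1, listed at 619.0 TPM beside 670.9 TPM in 4-cell cohort 1, so its value is uncertain. The ratio of blastocyst cohort 1 to morula cohort 1 had a median of 0.825, with 14 members above 1 and 71 below. It was smallest for Rpl3l (0.283), Rps25 (0.549) and Rpl39 (0.553), and largest for Rps4l (1.56), Rpl28 (1.25) and Rpsa (1.15), the laminin receptor and small-subunit protein.

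Caput and cauda sperm were compared at each stage, and testis with cauda sperm in 3 cohorts, to ask whether the source of the sperm altered transcript levels. With the injection groups this gave 21 comparisons, and none of the 85 members passed in any of them (limma, adjusted p under 0.05 over all genes tested). The 21 comparisons held 1785 tests of members, of which 131 (7.34%) had an unadjusted p under 0.05, beside 9.63% of the tests of all genes. Median changes of the members ran from -0.15 to 0.11 on the log2 scale, positive in 10 comparisons and negative in 11. The smallest adjusted p was 0.0519.

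**Figure D5:**
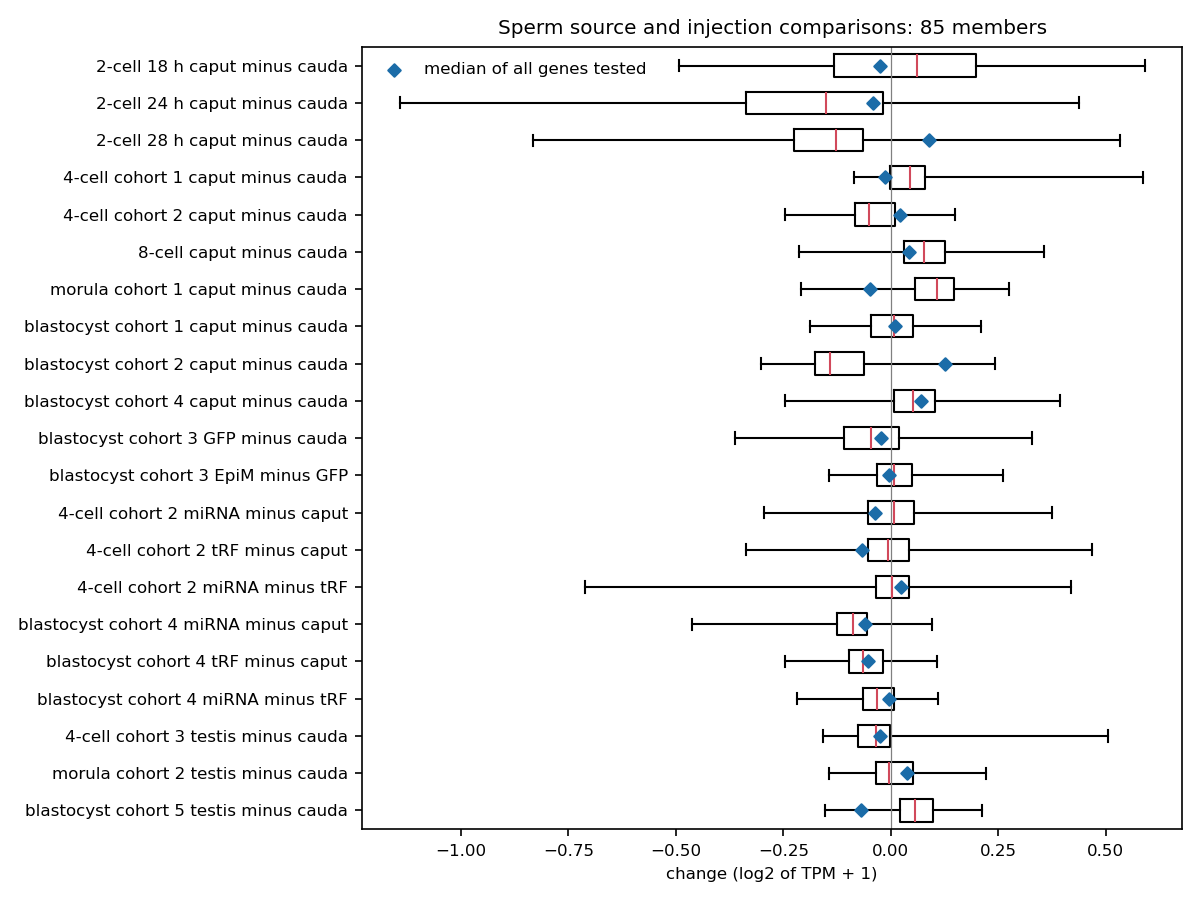
Fitted changes of the 85 members (log2 scale) in the 21 comparisons of sperm source and injected RNA, 1 row per comparison, with boxes for the quartiles and median of the members, whiskers for their full range and diamonds for the median of all genes tested. The medians of the members lie between -0.15 and 0.11, and the whiskers reach furthest at 24 h, to -1.14 (Rpl9).

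In 2-cell embryos no member passed at 18 h (0% of all genes called), 24 h (0.00746%) or 28 h (0.0759%). The smallest p at 18 h was that of Rpl35, a large-subunit protein, at 29.8 ± 14.9 TPM with cauda and 37.99 ± 16.7 TPM with caput sperm (SD), a difference of 0.45 ± 0.22 (SE). At 24 h it was Rpl9, at 16.9 to 134.9 TPM (median 63.0) in 8 cauda embryos and 3.83 to 124.3 TPM (median 32.5) in 11 caput embryos, groups that overlap over most of their range. The difference was -1.14 ± 0.51 (SE, adjusted p = 0.845, limma fit across all genes). At 28 h it was Rps24, at 273.5 ± 193 TPM with cauda and 200.7 ± 86.4 TPM with caput sperm (SD), a difference of -0.39 ± 0.17 (SE, adjusted p = 0.357). At 28 h 13 of 85 members were higher with caput sperm, with a median of -0.13 against 0.09 for all genes, and the share of TPM in members was lower with caput sperm in 3 of 3 sessions, with differences from -0.528 to -0.171 percentage points. The 95% interval of the difference lay within 1 log2 unit of 0 for 75 members at 18 h, 46 at 24 h and 80 at 28 h, and for the other members the data allow a difference of that size.

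At the 4-cell stage 0 members passed in cohort 1 (1.12% of genes called) and in cohort 2 (0.573%). Of the ribosomal proteins named otherwise, which are no members, 1 of 3 tested was higher with caput sperm in cohort 1. In cohort 2, 0 of 3 passed. In cohort 1, whose cauda embryos set the rule, 62 members were higher with caput sperm and the median was 0.04. In cohort 2, 25 were higher and the median was -0.05, but without 1 session 57 were higher and the median was 0.04. At the 8-cell stage 0 members passed (0% of genes called) and 74 were higher with caput sperm. With the embryo number as a block 26 were higher, and the median turned from 0.08 to -0.10. Rpl41 had the smallest p, at 5339 ± 1095 TPM with cauda and 5724 ± 763 TPM with caput sperm (SD). Without the libraries that stood apart its means were 5451 and 5671 TPM. Both sperm were present in 3 sessions. Sessions without cauda embryos gave 15, 1 and 1 of the caput embryos, which do not inform the fitted difference.

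In morula cohort 1, 0 members passed (0.859% of genes called), 78 of 85 were higher with caput sperm and 30 had an unadjusted p under 0.05. The median was 0.11, against -0.05 for all genes. Rps24 came closest to the threshold, at 873.1 to 2103 TPM (median 1347) with cauda sperm and 1021 to 2324 TPM (median 1754) with caput sperm. The ranges overlapped, and the difference was 0.26 ± 0.07 (SE, adjusted p = 0.0519, limma). Without 1 session 4 members passed, all higher with caput sperm, and with TPM computed without the members Rps24 passed (adjusted p = 0.0455). The share of TPM in members was higher with caput sperm in 2 of the 4 sessions that held both groups, with differences from -0.52 to 3.26 percentage points.

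Blastocysts were compared in 3 cohorts of uninjected caput and cauda embryos. In cohort 1, 0 members passed (2.12% of genes called), 48 were higher with caput sperm (median 0.01, or -0.05 with values centred on the median gene), and Rpl13, a large-subunit protein, had the smallest p at 2863 ± 337 TPM with cauda and 2633 ± 400 TPM with caput sperm (SD). Cohort 2 leaned the other way from morula cohort 1: 0 passed (0.280% of genes called), 8 were higher with caput sperm, 27 had an unadjusted p under 0.05, and the median was -0.14 against 0.13 for all genes. The share of TPM in members was higher with caput sperm in 1 of 6 sessions there. Rps9, a small-subunit protein, stood at 840 to 1560 TPM (median 1266) with cauda and 677 to 1460 TPM (median 1139) with caput sperm, overlapping ranges, with a difference of -0.23 ± 0.07 (SE, adjusted p = 0.134). In cohort 4, 0 passed (1.84% of genes called), the median was 0.05 (-0.05 with centred values), and Rps27l had the smallest p at 2191 ± 1184 TPM with cauda and 1791 ± 376 TPM with caput sperm (SD), where 1 cauda embryo stood at 8167 TPM. Without 1 session the gene passed (-0.30, adjusted p = 0.0407).

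With testis sperm, 0 members passed in 4-cell cohort 3 (0.0174% of genes called), morula cohort 2 (1.58%) and blastocyst cohort 5 (0%). Rpl10l had the smallest p at the 4-cell stage, at 119.5 ± 58.7 TPM with cauda and 155.4 ± 46.4 TPM with testis sperm (SD), a difference of 0.51 ± 0.16 (SE, adjusted p = 0.481). Rpl41 had it in morulae, at 4533 ± 755 TPM and 5026 ± 680 TPM (0.16 ± 0.05, adjusted p = 0.106). Rpl34 had it in blastocysts, at 1281 ± 187 TPM and 1430 ± 463 TPM. Members higher with testis sperm numbered 19, 39 and 73 of 85 in the 3 cohorts, with medians of -0.04, -0.01 and 0.06.

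The injected embryos ask whether small RNAs of the epididymis altered the levels of caput embryos. Where they are set against uninjected caput embryos, the RNA and the act of injection cannot be told apart. In 4-cell cohort 2, 0 members passed for EpiM miRNA against uninjected caput embryos (1.26% of genes called), for EpiM tRF against the same embryos (0.00861%) or for miRNA against tRF (0.822%). These comparisons share their samples. Rps29, a small-subunit protein, had the smallest p in both comparisons with uninjected caput embryos, at 2426 ± 413 TPM without injection, 2683 ± 303 TPM with miRNA and 2746 ± 290 TPM with tRF (SD). Its differences were 0.16 ± 0.06 (SE, adjusted p = 0.157) and 0.20 ± 0.06 (adjusted p = 0.257). For miRNA against uninjected embryos, 1 member was higher and 2 were lower without 1 session.

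In blastocyst cohort 3, 0 members passed for GFP-injected caput embryos against cauda embryos (0.455% of genes called) or for EpiM small RNA against GFP (0.466%), which share the GFP group. The cauda embryos were uninjected, so sperm source and injection cannot be told apart in the comparison of GFP with cauda. Rps23, a small-subunit protein at the decoding centre, stood at 1748 ± 444 TPM in cauda embryos and 1485 ± 316 TPM with GFP (SD), a difference of -0.25 ± 0.09 (SE, adjusted p = 0.166), and it passed without 1 session (adjusted p = 0.0440). Rps4x stood at 1870 ± 309 TPM with GFP and 1736 ± 274 TPM with EpiM small RNA. In cohort 4, 0 passed for miRNA against caput (3.05%), tRF against caput (0%) and miRNA against tRF (1.48%), again with shared samples. Members higher in the injected embryos numbered 4 of 85 for miRNA and 12 for tRF, with medians of -0.09 and -0.06. All genes tested leaned the same way, with medians of -0.06 and -0.05 and 36.7% and 35.8% of them higher.

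Assembly genes passed in several of these comparisons where members did not. In blastocyst cohort 4, 6 of 42 assembly genes were higher with caput than with cauda sperm, among them Utp18 (0.72) and Ncl (0.49), and the list's median was 0.19 on the log2 scale, beside 1.84% of all genes called and a median of 0.07. With miRNA 5 of the same list were lower than in uninjected caput embryos, among them Utp18 (-0.81), Gnl3 (-0.58) and Gar1 (-0.56), with a median of -0.18, beside 3.05% of all genes called and a median of -0.06. With tRF against the same embryos 0 of 42 passed, but the list leaned the same way, with a median of -0.15. All genes then had a median of -0.05, with 0% called. By estimate, 0 of 42 assembly genes were higher with miRNA and 2 of 42 with tRF. With miRNA against tRF 1 of 42 assembly genes was lower, beside 1.48% of all genes called. In morula cohort 2 with testis sperm 2 of 42 were higher, beside 1.58% of all genes called. In blastocyst cohort 4, the comparisons of uninjected caput embryos with cauda, miRNA and tRF embryos use the same caput group. The members' medians in them were 0.05 (caput minus cauda), -0.09 (miRNA minus caput) and -0.06 (tRF minus caput).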

How the data were processed

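The deposited values are TPM in 12 tables made by the authors, and each library sums to between 999998.77 and 1000000.98. Per the submitters' processing notes, reads were aligned with Bowtie and the genome build was mm10. The counting tool, the annotation and the versions are not given in the sources used here. Raw counts were not used, so the depth is unknown. Groups come from the labels. The notes on growth and collection give 28 h for every sample, and the stage labels were used. Each sample is a single embryo, and p-values measure the spread between embryos. Beside the values of blastocyst cohort 4, 2 columns of other numbers were not used.

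Comparisons were fitted with limma 3.58.1 in R 4.3.3 on log2(TPM + 1). The model held fixed effects for session and group, with robust eBayes variances that follow an intensity trend, and p-values were adjusted by Benjamini-Hochberg over every gene of the fit. Genes entered where the number of embryos at 1 TPM or more was at least 50% of the size of the smaller group, and an adjusted p under 0.05 counted as a call. The steps were tested on simulated data. Alternatives were a pseudocount of 0.1, no filter, a model without session, the embryo number as a block, session means, median centring, TPM without the members, and, chosen after seeing the data, fits without each session and without the 17 libraries apart.

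The named genes are the paralogs with their partners, the stalk genes, the 4 highest and lowest members in 4-cell cohort 1, up to 5 with the largest change between 18 h and 28 h in each direction, the smallest p in comparisons with no call, and the 3 largest and smallest stage ratios. Other members named by stage were chosen after their values were seen. The members and the gene lists were chosen with earlier results of these data known. Some genes that the rule names are not reported here.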

Additional observations from a re-analysis of the deposited data

How the results depend on the processing

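Of 299 main results under alternatives, 294 held. Counts of members called were taken to hold within 1.5 times the reported count. The mean share of TPM in members in 28 h cauda embryos, also among these results, was taken to hold within 1 SD. The 22 alternative fits of the change from 18 h to 28 h gave 84 members higher and 0 or 1 lower, with medians between 2.39 and 3.20 on the log2 scale. Of 264 alternative fits of the sperm and injection comparisons, 259 gave 0 calls. The exceptions were morula cohort 1 caput minus cauda (1 member with TPM computed without the members, 4 without 1 session), 4-cell cohort 2 miRNA minus caput (3 without 1 session), blastocyst cohort 3 GFP minus cauda (1 without 1 session) and blastocyst cohort 4 caput minus cauda (1 without 1 session), and the cause was not tested. Of 792 results for single genes, 786 kept their direction and side of the threshold, 4 passed where they had not, 2 (both Rps15a with cauda sperm) no longer passed, and 0 reversed.

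The embryo numbers were not shown to pair the samples. Same-numbered embryos' deviations from their group means correlated at medians of -0.078 to 0.181 over the 19 sperm and injection comparisons with numbers from the labels and the 2 comparisons of 28 h with 18 h. In no comparison did every pair exceed 0.1, and not every embryo correlated best with its own number. A partial pairing would also miss this criterion. For blastocyst cohort 4 miRNA minus caput, 17 of 29 pairs exceeded 0.1, and 2 correlated best with their own number. A replicate block for the number gave 85 calls for 28 h minus 18 h with either sperm, as without it, and changed no other count. It moved the median of 8-cell caput minus cauda from 0.08 to -0.10. No paired analysis was possible for blastocyst cohort 3, whose numbers come from accession order. TPM hold no depth, so the precision rests on the number of embryos, which is smallest at 24 h (8 and 11).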
